A study of Mus musculus with 2 samples.

Results

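The cells described here are 360 mouse bone marrow cells, out of 10610 in all, that met a transcript rule for mature neutrophils low in gelatinase and interferon-inducible Ifit transcripts. The rule also took in cells low in late neutrophil markers. There were 148 in a control library and 212 in a library from mice that had undergone MCAO (middle cerebral artery occlusion), which models stroke by blocking a brain artery. Both libraries came from bone marrow of male wild-type mice aged 8 to 10 weeks, with all marrow cells of tibias and femurs loaded after red cell lysis and no sort. How many animals each library pools, when marrow was taken after the occlusion and how controls were handled are not given in the sources used here. Each condition had 1 library, so differences between conditions have no replicate check and no test was made. Brackets give 95% intervals, which cover counting error only, and cells of 1 library are not replicates.

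Members were chosen by measured transcript levels, written throughout as UMIs (unique molecular identifiers, which count captured mRNA molecules) per 10000 UMIs of the cell or of the summed cells. A mature neutrophil had a sum of at least 400 for S100a8 and S100a9, under 400 for Ltf, Camp and Ngp, and under 20 for C1qa, C1qb and C1qc. This held for 1299 control and 1413 MCAO cells. Among these, the low-gelatinase set had a sum under 60 for Mmp8 and Mmp9, under 30 for Ifit1, Ifit3 and Ifit3b, and under 20 for Stfa1, Stfa2, Stfa3 and BC100530. The levels of these genes in the set are therefore a description of the rule. So are all contrasts between the set and other neutrophils, since the same counts placed the cells.

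Neutrophils pass through an ordered programme in the marrow, in which primary granule proteases are transcribed first, secondary granule proteins next and gelatinases later. Transcripts for chemotactic and cytokine receptors and for inflammatory mediators come up last, before the cells leave for the blood. Retention in the marrow rests on CXCR4 and release on CXCR2, while granulocyte colony-stimulating factor, acting through the receptor encoded by Csf3r, drives production and release.

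A low-gelatinase label holds for cells before as well as after the gelatinase stage, so the set was checked against 5 late neutrophil markers. These were Il1b, which encodes the inflammatory cytokine interleukin 1 beta, Csf3r, Cxcr2, Clec4d, a C-type lectin receptor, and Hcar2, a receptor for hydroxybutyrate and niacin. The set was spread over separate ranges of the summed level of these 5 genes. In the control library 35 cells were under 20, 14 lay between 20 and 60, and 99 were at 60 or more. In the MCAO library the counts were 99, 10 and 103. The name "late" therefore applied to the markers of part of the set only. Cells at 60 or more are called marker-high below (99 control, 103 MCAO) and cells under 60 marker-low (49 control, 109 MCAO). The border of 60 was set after the values were seen.

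Marker-high cells were small in RNA content and carried few transcripts of other stages. Their median was 1654 UMIs per cell in control and 2096 in MCAO cells. Only 1 of 99 control and 1 of 103 MCAO cells reached 30 for the sum of Mpo, Elane, Prtn3 and Ctsg, the primary granule proteases, and none reached 60 for a list of 25 cell division genes (0 of 99 and 0 of 103 cells, which at 3 cells of the total allows shares of up to 3.03% and 2.91%). In 94 control and 97 MCAO marker-high cells none of the lists for primary granules, cell division or other cell types passed its level.

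Marker-low cells went against the label of the set. Their median was 10552 UMIs per cell in control and 12642 in MCAO cells. Primary granule transcripts reached 30 in 29 of 49 control and 72 of 109 MCAO cells, and cell division genes reached 60 in 26 and 82 cells. Elane, neutrophil elastase, stood at 64.3 in the control and 65.5 in the MCAO marker-low cells, and Prtn3, proteinase 3, at 63.1 and 64.8. In marker-high cells Prtn3 was at 0.81 and 1.83. The monocyte list, 11 genes, reached 60 in 13 control and 49 MCAO marker-low cells against 3 and 3 marker-high cells. Secondary granule transcripts (Ltf, Camp and Ngp together) were at 100 or more in 31 control and 64 MCAO marker-low cells and in none of the marker-high cells. Not all were deep: 15 control and 11 MCAO marker-low cells had under 2000 UMIs. Only 7 control and 7 MCAO marker-low cells passed none of the lists. These cells met the thresholds of the rule while most carried transcripts of the primary granule stage, of cell division or of monocytes and few of the late markers.

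**Figure D1:**
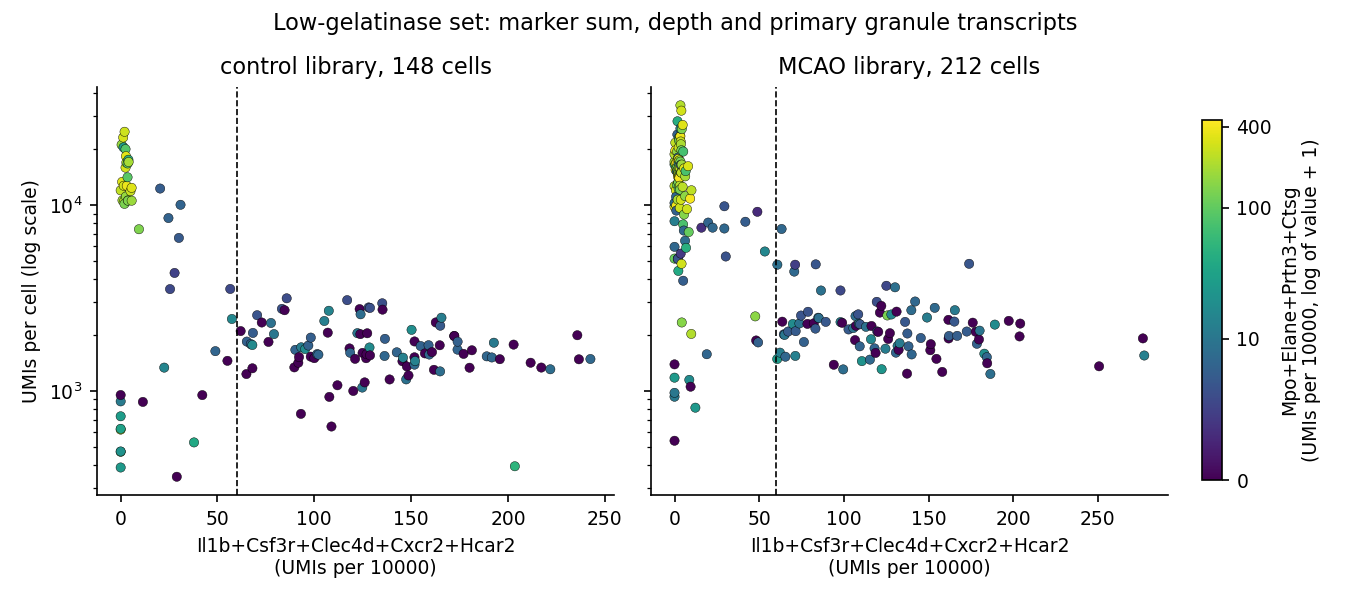
Each point is 1 cell of the low-gelatinase set, with its summed level of the 5 late markers in UMIs per 10000 on the horizontal axis, its UMIs on a log vertical axis and its primary granule sum as colour, for each library. The dashed line is at 60. Marker-high cells (60 or more) lie at low depth, with medians of 1654 and 2096 UMIs, and marker-low cells reach 10552 and 12642.

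A doublet caller marked 6 control and 10 MCAO cells of the set, of 54 and 64 marked cells in the libraries. Among marker-high cells it marked 1 of 99 control and 4 of 103 MCAO cells. The marked cell held 3149 UMIs in the control, and the marked MCAO cells held from 4773 to 7433. The comparison of the libraries in marker-high cells was not repeated without them. Markers of other cell types were measured in marker-high cells as summed levels. The level of the monocyte list was 16.8 in control and 23.6 in MCAO marker-high cells, with Vcan, Klf4 and Cx3cr1 at 0 UMIs in the control. The B-lineage list stood at 7.43 and 4.60 with Vpreb1 at 0 in both, and the list for T and NK cells at 0.806 and 0.681 with Cd3g at 0 in both. The macrophage list stood at 7.08 and 6.43, with Cd163, Mertk and Spic at 0 in both. The dendritic list stood at 5.13 in control and 9.75 in MCAO marker-high cells, with 104.8 and 144.5 in the highest cell, beside 3.38 and 2.41 in gelatinase-rich cells with a marker sum of 60 or more, and Cd209a was at 0 UMIs in marker-high cells of both libraries. The erythroid list, mostly globin transcripts, was at 12.04 and 20.1. Its highest marker-high cell was at 37.4 and 56.0. The part of free RNA in these levels was not tested. The deposited cell names are serial numbers with no barcodes, and 5120 name endings occur in both libraries, so shared barcodes could not be counted.

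Of the mature neutrophils, 11.4% [9.72 to 13.2] belonged to the set in control and 15% [13.2 to 17.0] in MCAO cells (148 of 1299 and 212 of 1413 cells). The higher MCAO share came with the marker-low cells. Marker-high cells were 7.62% [6.24 to 9.20] of mature neutrophils in control and 7.29% [5.99 to 8.77] in MCAO cells, and these intervals overlapped almost fully. Marker-low cells were 3.77% [2.80 to 4.96] and 7.71% [6.38 to 9.23], with intervals that did not overlap. Marker-low cells thus formed 33.1% of the control and 51.4% of the MCAO set.

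Depth moved with these shares. Of mature neutrophils under 2000 UMIs, 21.2% were marker-high members in the control (73 of 344) and 25.9% in the MCAO library (42 of 162). Between 2000 and 4000 UMIs the shares were 3.66% [2.41 to 5.32] (26 of 710) and 7.45% [5.66 to 9.59] (55 of 738). Between 4000 and 8000 UMIs there were 0 of 212 control and 6 of 418 MCAO cells. These 6 cells include the 4 that the doublet caller marked. At 8000 or more there were 0 of 33 and 0 of 95. At 3 cells of the total, these counts of 0 allow shares of up to 1.42%, 9.09% and 3.16%. The intervals of the libraries overlapped under 2000 UMIs and did not overlap between 2000 and 4000 UMIs, so the near equality of the pooled marker-high shares did not hold within that band. Marker-low cells, in contrast, were 28 of 33 control and 77 of 95 MCAO mature neutrophils with 8000 UMIs or more. With every cell thinned to 1000 UMIs and the rule applied again, the set was 9.89% (125 of 1264) in control and 12.99% (184 of 1417) in MCAO cells. Of the set members deep enough to be thinned, 67.2% in control and 72.1% in MCAO cells met the rule again. Membership of single cells near the thresholds is thus uncertain at this depth.

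**Figure D2:**
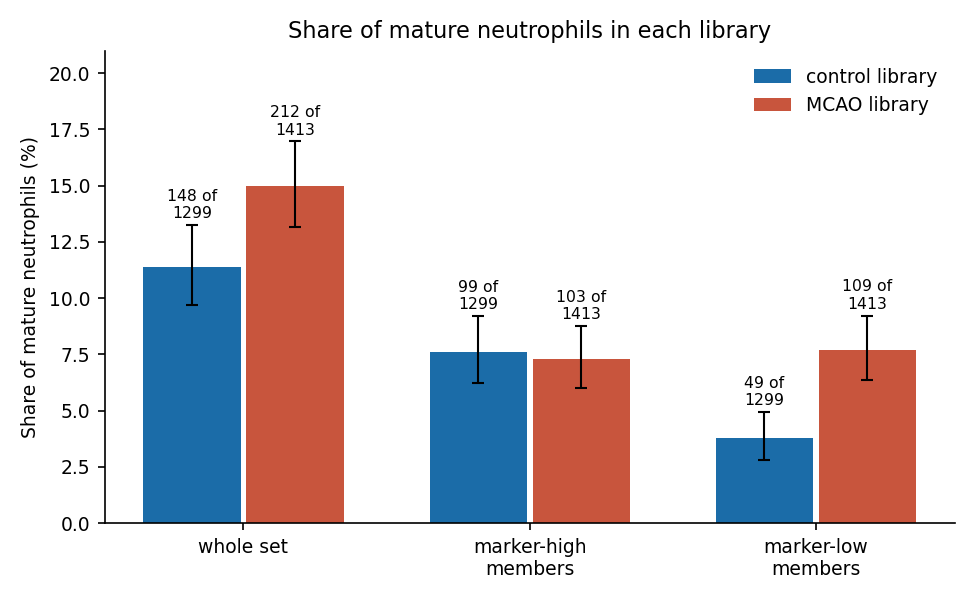
Shares of mature neutrophils in percent, by library, for the whole low-gelatinase set and for its marker-high and marker-low cells, with 95% Clopper-Pearson intervals. Marker-high shares are 7.62% and 7.29%, while marker-low shares are 3.77% and 7.71%.

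Promoters of 2 markers and of Mmp8, a gene of the gelatinase sum in the rule, are shown here because the results set these transcripts against each other across the same cells. Windows are those of RefSeq on GRCm38.p6, from 250 bases before to 50 bases after the annotated start, printed 5′ to 3′ on the gene's strand. They were available for 4 of the 5 markers, all but Hcar2, and for Mmp8, the neutrophil collagenase, but not for Mmp9, gelatinase B. Both strands were searched for GAGGAA (bound by PU.1), TTGCNNAA (C/EBP), TGANTCA (AP-1) and GGANTTTCC (NF-kB). No searched motif overlapped another in the windows printed, and matches are in capitals. Il1b lies at chr2:129364570-129371139 on the minus strand, where the antisense gene Il1bos overlaps it, and its window is chr2:129371090-129371389. Csf3r lies at chr4:126024550-126044440 on the plus strand, with the window chr4:126024409-126024708. Mmp8 lies at chr9:7558456-7568485 on the plus strand, with the window chr9:7558179-7558478. These gene positions are those of GENCODE, and for Csf3r and Mmp8 their starts differ from the RefSeq starts of the windows.
Il1b: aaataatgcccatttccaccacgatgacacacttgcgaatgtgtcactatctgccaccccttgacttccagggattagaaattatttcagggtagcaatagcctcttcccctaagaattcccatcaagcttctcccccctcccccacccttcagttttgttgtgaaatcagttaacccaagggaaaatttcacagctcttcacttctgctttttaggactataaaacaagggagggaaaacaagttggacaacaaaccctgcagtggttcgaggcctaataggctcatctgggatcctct
Csf3r: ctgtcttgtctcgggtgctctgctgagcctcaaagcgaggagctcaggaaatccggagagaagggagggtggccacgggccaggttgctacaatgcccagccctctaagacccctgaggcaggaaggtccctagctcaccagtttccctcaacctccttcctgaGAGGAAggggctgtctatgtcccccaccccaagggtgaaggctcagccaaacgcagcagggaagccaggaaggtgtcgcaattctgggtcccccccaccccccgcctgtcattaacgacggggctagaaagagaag
Mmp8: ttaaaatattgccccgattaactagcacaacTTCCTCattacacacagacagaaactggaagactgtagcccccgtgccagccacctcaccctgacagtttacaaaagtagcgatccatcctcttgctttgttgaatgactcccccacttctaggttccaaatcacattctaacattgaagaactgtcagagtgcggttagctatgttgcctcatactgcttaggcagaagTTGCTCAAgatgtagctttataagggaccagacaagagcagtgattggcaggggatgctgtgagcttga
The Il1b window held none of the 4 motifs. The Csf3r window held GAGGAA with its first base 86 bases before the RefSeq start, inside the GENCODE span of the gene. The Mmp8 window held the same motif on the other strand (TTCCTC) 219 bases before its RefSeq start and the C/EBP motif 19 bases before it. GAGGAA occurred in 28.3% of all 32851 RefSeq windows of this length, the C/EBP motif in 10.8%, the AP-1 motif in 7.81% and the NF-kB motif in 1.25%. A match is a description of letters, not of binding.

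The 5 markers are described first in the marker-high cells, whose selection used their sum. Il1b stood at 26.0 [23.6 to 28.5] in control and 27.2 [25.1 to 29.4] in MCAO marker-high cells. Its median cell was at 22.5 and 22.99 and its highest at 152.7 and 105.4. In gelatinase-rich cells with a marker sum that was also 60 or more (400 control and 345 MCAO cells) Il1b was at 9.89 and 10.03. The other groups were not selected on the markers. Il1b was at 16.6 and 12.95 in Ifit-high mature neutrophils, 7.42 [5.91 to 9.20] and 4.23 [3.80 to 4.68] in stefin-high ones, 4.72 [4.46 to 4.99] and 4.01 [3.78 to 4.24] in all gelatinase-rich cells, and 0.23 and 0.17 in immature neutrophils. This order was the same in both libraries, but in the MCAO library the intervals of stefin-high and gelatinase-rich cells overlapped. In B-lineage cells, which should lack the transcript, Il1b stood at 0.26 and 0.31, close to the immature neutrophils.

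Csf3r followed the same order, with 26.2 and 25.2 in marker-high, 16.9 and 13.7 in Ifit-high, 10.5 and 9.83 in stefin-high, 9.18 and 8.09 in gelatinase-rich and 1.81 and 1.61 in immature cells. At the marker sum of 60 or more, gelatinase-rich cells held Csf3r at 14.3 and 14.5. Cxcr2 differed less. It stood at 55.9 and 57.4 in marker-high cells, 51.2 and 47.2 in Ifit-high, 39.9 and 40.8 in stefin-high and 37.6 and 35.4 in gelatinase-rich cells, against 6.13 and 5.78 in immature neutrophils. With that floor on the sum, gelatinase-rich cells held Cxcr2 at 52.0 and 53.7 and Clec4d at 16.9 and 10.96, beside 16.6 and 10.4 for Clec4d in marker-high cells. Hcar2 was the least abundant marker, at 5.93 in control and 1.45 in MCAO marker-high cells and 2.95 and 0.92 in gelatinase-rich cells with that floor. The floor did not make the sums equal. The summed level of the 5 markers was 130.6 in marker-high members against 95.97 in these gelatinase-rich cells in the control library, and 121.5 against 90.2 in the MCAO library, so a higher level of a marker is partly built in by the selection.

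In marker-low members the markers were far below the marker-high level and nearer to that of immature neutrophils. Il1b was at 0.83 and 0.31 there, Csf3r at 1.82 and 1.65, Clec4d at 0.92 and 0.44, Cxcr2 at 2.60 and 2.28 and Hcar2 at 0.20 and 0.03. In cells thinned to 1000 UMIs, an Il1b UMI was found in 75.5% of control and 71.8% of MCAO marker-high cells, in 45.8% and 44.1% of gelatinase-rich cells with a marker sum of 60 or more and in 1.89% and 2.13% of B-lineage cells.

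**Figure D3:**
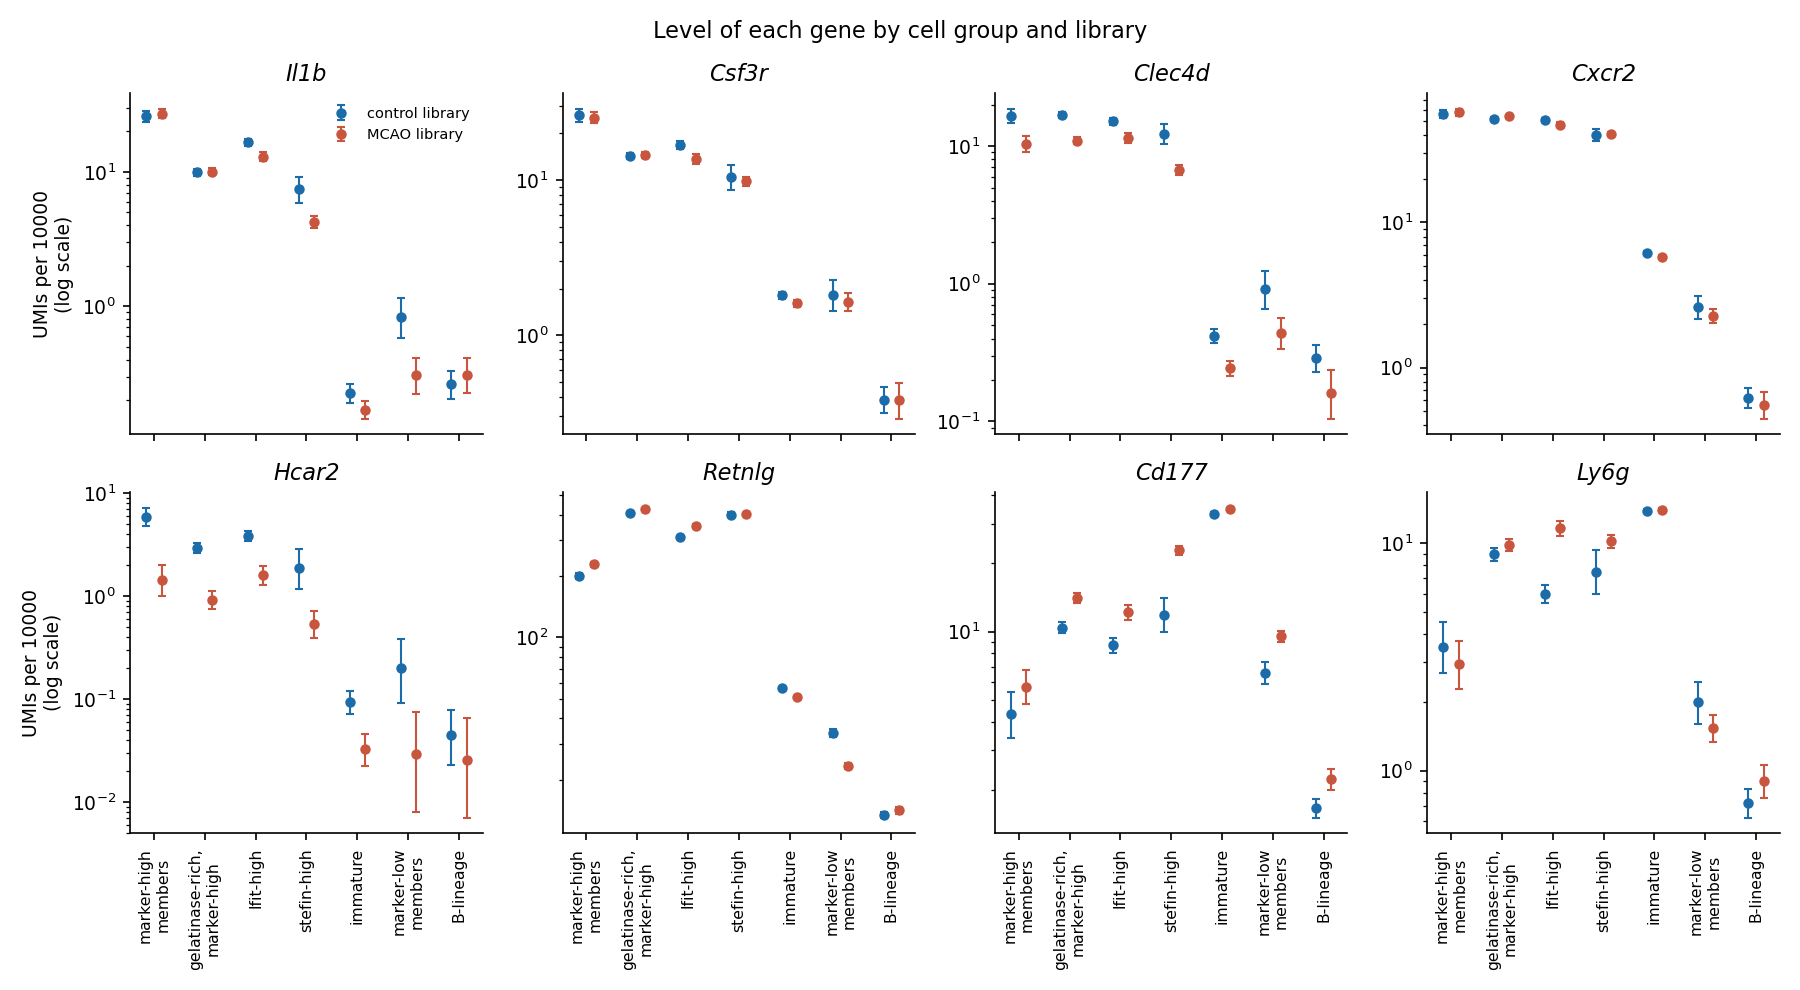
Levels of the 5 late markers and of other neutrophil genes in UMIs per 10000 on a log axis, by cell group and library, with 95% Poisson intervals. The gelatinase-rich cells plotted have a marker sum of 60 or more. Il1b reaches 26.0 and 27.2 in marker-high cells and 9.89 and 10.03 in these, while Cxcr2 stays between 39.9 and 57.4 in them, the Ifit-high and the stefin-high cells.

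The gelatinase threshold cut through a continuous range. Among mature neutrophils with low Ifit and stefin and a marker sum of 60 or more, Il1b in the control library was at 38.9 where the sum of Mmp8 and Mmp9 was 0 to 20, 31.1 at 20 to 40, 20.6 at 40 to 60, 20.8 at 60 to 80, 14.8 at 80 to 120 and 5.95 above. In the MCAO library the values were 34.4, 33.7, 22.9, 20.5, 13.7 and 6.005. The first of these bins is thin, with 12 control and 9 MCAO cells. Csf3r ran from 40.7 to 10.9 in control and from 44.3 to 12.1 in MCAO cells over the same bins. Retnlg, a resistin-like gene of late neutrophils, ran the other way, from 84.9 to 454 and from 94.5 to 465. Cxcr2 showed no such slope and lay between 46.5 and 62.6 in all bins of both libraries. Il1b, Csf3r and Cxcr2 are parts of the marker sum that had to reach 60 in these cells. The even level of Cxcr2 is therefore partly built in, and the slopes hold only for cells above that floor.

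Just inside the threshold, at 50 to 60, Il1b was at 19.0 in 31 control and 22.3 in 33 MCAO cells. Just outside it, at 60 to 70, it was at 22.02 in 31 control and 25.2 in 26 MCAO cells. The intervals overlapped across the border in both libraries. Depth rose along the same axis, from a median of 1465 UMIs in the lowest to 3059 in the highest bin of the control library and from 1977 to 3346 in the MCAO library. Its part in the slope was not tested beyond the comparison at matched depth given below.

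**Figure D4:**
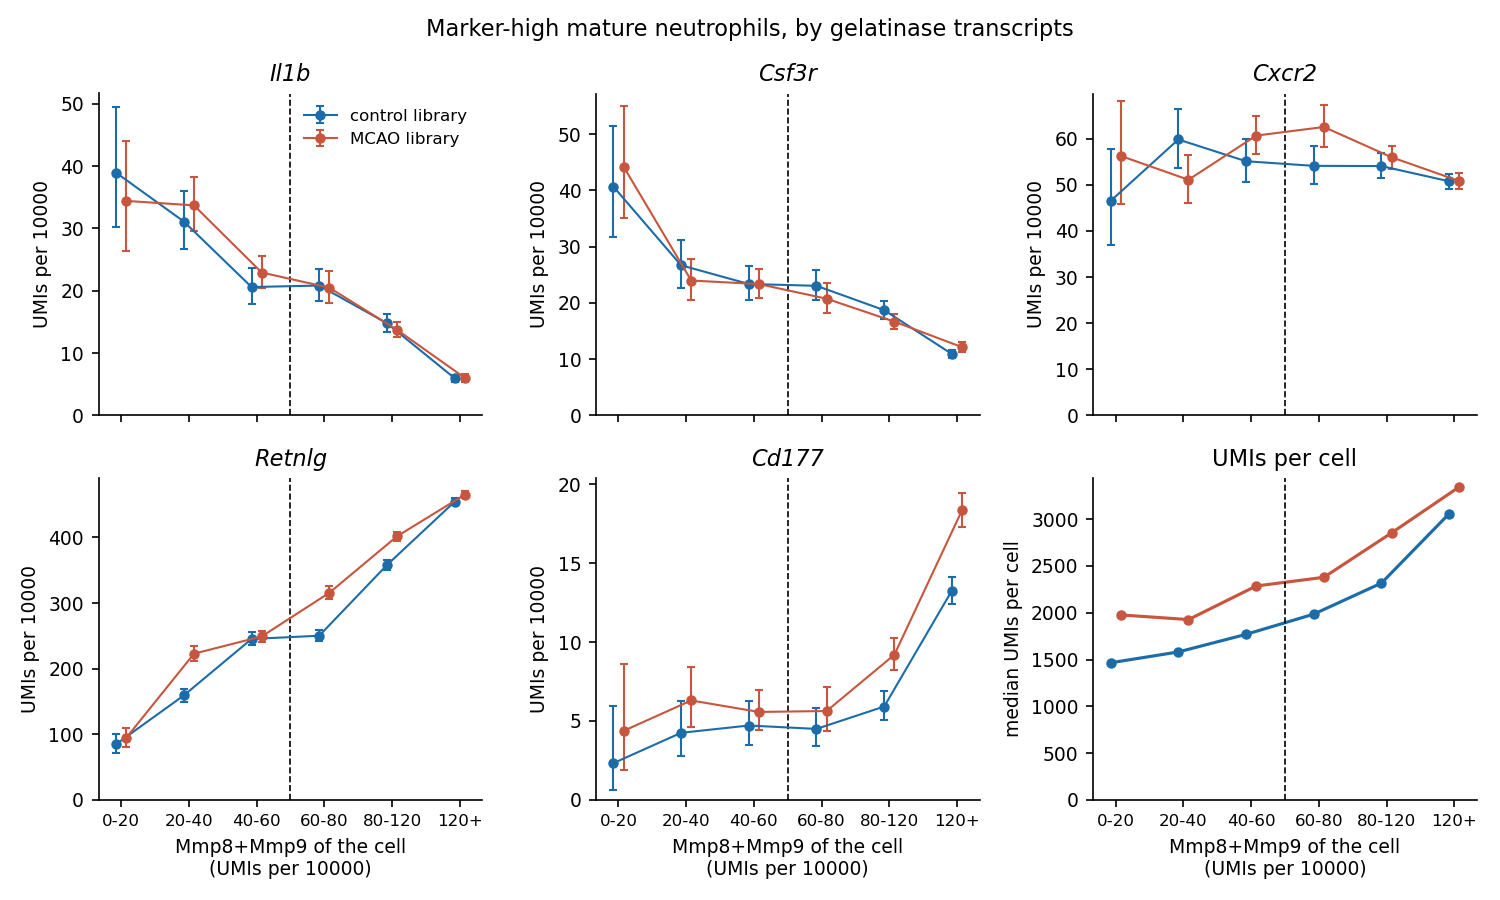
Levels of Il1b, Csf3r, Cxcr2 and other genes in UMIs per 10000 against the summed level of Mmp8 and Mmp9, by library, with 95% Poisson intervals. Il1b goes from 38.9 and 34.4 in the lowest bin (12 and 9 cells) to 5.95 and 6.005 in the highest, and Cxcr2 stays between 46.5 and 62.6.

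Marker-high cells were then set against gelatinase-rich cells with the same floor of 60 on the marker sum, within each library. Of 2848 genes measured (at least 50 UMIs and in at least 5% of the cells of 1 side), 0.772% were higher and 1.05% lower past 2-fold in both libraries. For the whole set against all gelatinase-rich cells, 25.8% of 5507 genes were higher and 4.58% lower, and Prtn3, Elane and Mpo, all high in marker-low cells, were among the 12 leading genes. With only the members limited to marker-high cells, 107 genes were higher and 154 lower, in place of 1419 and 252, and with both sides limited 22 and 30.

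The 12 leading genes higher in marker-high cells were Sirpb1c, Fosb, Wfdc17, Rufy4, Fgl2, Il1b, Rraga, Il13ra1, Lfng, Spata13, Pla2g7 and Vmp1. Wfdc17, a whey acidic protein domain gene, was at 10.4 against 1.37 in the control (7.57-fold [6.07 to 9.45]) and at 20.95 against 7.16 in the MCAO library (2.93-fold [2.61 to 3.28]). Il1b was 2.63-fold [2.35 to 2.93] and 2.71-fold [2.45 to 2.99] higher. Fgl2, a fibrinogen-like protein, was 3.34-fold [2.69 to 4.15] and 2.69-fold [2.20 to 3.28] higher. Sirpb1c, a signal regulatory receptor, was 3.24-fold and 3.11-fold higher, Fosb, an AP-1 subunit, 3.15-fold and 2.99-fold, and Pla2g7, the platelet-activating factor acetylhydrolase, 2.29-fold and 2.21-fold. Vmp1, an autophagy protein, was 2.18-fold and 2.28-fold higher, and its locus overlaps Mir21a. Rufy4 was at 1.44 against 0.519 in the control and 1.75 against 0.618 in the MCAO library. Lfng, a glycosyltransferase that modifies Notch, was at 3.23 against 1.25 and 4.003 against 1.78. Spata13 was 2.81-fold and 2.24-fold, Rraga, a GTPase of the mTOR pathway, 2.41-fold and 2.80-fold, and Il13ra1, an interleukin 13 receptor chain, 2.41-fold and 2.63-fold higher. Outside these 12 genes, Itga4, the alpha 4 integrin subunit, was at 1.67 against 0.636 and 3.45 against 1.04. Csf1r, the receptor for macrophage colony-stimulating factor, was at 3.40 against 1.56 and 3.07 against 1.47. Socs3, a feedback inhibitor of STAT3 signalling, was at 2.42 against 0.645 and 1.87 against 0.932.

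The 12 leading lower genes were Gpr27, Tinagl1, Hsd11b1, Cyb561d1, Acvrl1, Sqor, Mgst2, Itgb2l, Ly6g, Lims1, Cd177 and Ifnlr1, of which Itgb2l, Ly6g and Cd177 are on the secondary granule list. Tinagl1 was at 0.230 against 1.21 and 0.256 against 1.35, Sqor, a mitochondrial sulfide oxidase, at 0.634 against 1.91 and 0.639 against 1.93, and Lims1, a focal adhesion adaptor, was 5.21-fold and 2.56-fold lower. Gpr27 had 2 control and 1 MCAO UMIs in marker-high cells, at 0.115 against 0.707 and 0.0426 against 1.03. Cd177, the neutrophil surface glycoprotein in the title of the series, was at 4.32 in marker-high against 10.4 in gelatinase-rich control cells (2.41-fold lower) and at 5.71 against 14.1 in the MCAO library (2.47-fold lower). It was higher still in immature neutrophils, at 33.2 and 34.8. Ly6g, the antigen by which mouse neutrophils are commonly sorted, was at 3.51 against 8.93 and 2.94 against 9.86. Itgb2l, an integrin beta 2-like gene, was at 0.749 against 1.94 and 0.554 against 1.61. Retnlg was 2.03-fold and 1.87-fold lower, at 200.1 and 229 against 407 and 429. Of the 18 genes on the secondary granule list outside the rule, 16 were measured and 14 of them were lower in each library, 3 past 2-fold in both, with a median log2 ratio of -0.77 in control and -0.59 in MCAO cells. Over all genes measured the median was 0.07 and 0.13. The gelatinase and late granule list had a median of -0.41 and -0.33, with 12 and 9 of 13 measured genes lower and none past 2-fold in both.

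The medians of the signalling lists were above 0, as was the median over all genes measured, at 0.07 in control and 0.13 in MCAO cells. No share of all genes above 0 is given beside the counts of higher members. Of 15 AP-1 and immediate early genes measured, 12 in control and 14 in MCAO cells were higher, with medians of 0.49 and 0.64. Of these, 1 gene (Fosb) was past 2-fold in both, beside 0.772% of all genes. Of 11 NF-kB factors and feedback genes, 9 and 10 were higher, with medians of 0.26 and 0.53 and none past 2-fold. The IL-1 family and inflammasome list had medians of 0.29 and 0.41 over 9 genes. Nlrp3, the inflammasome sensor, was at 6.45 against 3.71 in the control and 4.77 against 2.78 in the MCAO library. The NADPH oxidase list, subunits of the respiratory burst enzyme, had medians of -0.09 and -0.39 over 7 genes. The type I interferon list had medians of 0.21 and 0.03 over 27 genes, none past 2-fold.

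At matched depth the differences of the single genes given here were smaller. The list medians were not computed at matched depth. With cells of 1500 to 2500 UMIs only (57 control and 67 MCAO marker-high cells against 139 and 94 gelatinase-rich cells), Il1b was 1.69-fold [1.45 to 1.98] and 1.46-fold [1.26 to 1.68] higher. Csf3r was 1.37-fold and 1.32-fold, Wfdc17 3.34-fold and 2.07-fold, Fosb 2.07-fold and 2.18-fold, and Sirpb1c 2.24-fold and 1.81-fold higher. Fgl2 was 3.05-fold and 1.56-fold, Vmp1 1.75-fold and 1.37-fold, and Pla2g7 1.69-fold and 1.34-fold [0.996 to 1.81] higher. Hcar2 was 1.29-fold [0.928 to 1.77] and 1.53-fold [0.773 to 3.02] higher. Cd177 was 1.48-fold lower in the control and 1.15-fold lower in the MCAO library, Ly6g 1.70-fold and 2.33-fold lower, and Retnlg 1.63-fold and 1.57-fold lower. Of 31 genes compared this way, 21 in each library left the interval of the value at all depths, and no value past 2-fold changed direction. Itgb2l was 1.69-fold [0.627 to 5.68] and 1.67-fold [0.660 to 4.78] lower. The intervals at matched depth included no difference for Hcar2 and Itgb2l in both libraries, and for Pla2g7 and Cd177 [0.841 to 1.57] in the MCAO library.

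The conditions were compared first in the marker-high cells, 99 control against 103 MCAO cells with 173619 and 234812 UMIs. Of 1374 genes measured, 11.6% were higher and 10.5% lower past 1.5-fold in the MCAO library. In gelatinase-rich cells with a marker sum of 60 or more, which hold more UMIs, 5.64% of 4146 genes were higher and 6.78% lower. Il1b, Csf3r and Cxcr2 differed little between the libraries, with folds of 1.05 [0.926 to 1.18], 0.960 [0.848 to 1.09] and 1.03 [0.945 to 1.12]. Hcar2 was 4.10-fold lower [2.76 to 6.23] in the MCAO library, at 1.45 against 5.93. The median control cell was at 3.56 for Hcar2 and the median MCAO cell at 0, with the highest at 46.7 and 26.0, so the ranges overlapped. After thinning to 1000 UMIs a Hcar2 UMI was found in 37.2% of control and 8.74% of MCAO marker-high cells, and in 0.19% and 0.16% of B-lineage cells. At matched depth Hcar2 was 3.87-fold lower, and in gelatinase-rich cells it was 3.20-fold lower. Clec4d was 1.60-fold lower [1.34 to 1.90], at 10.4 against 16.6, and 1.54-fold lower in gelatinase-rich cells.

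Interferon-response genes were lower in MCAO marker-high cells. Of 32 genes on the list 19 were measured, 17 of them were lower, and 10 passed 1.5-fold downward and none upward, beside the 10.5% of all genes. The median log2 ratio was -0.65, against -0.01 over all genes measured and -0.44 for the list in gelatinase-rich cells. Slfn4, a Schlafen family gene, was at 80.5 in control and 35.2 in MCAO cells (2.29-fold lower [2.10 to 2.498]). Ifi27l2a was at 28.2 and 12.3, Slfn5 at 16.5 and 7.62, Rtp4 at 13.4 and 6.18, and Isg15, an interferon-induced ubiquitin-like protein, at 2.76 and 1.24. Irf7, a transcription factor of the interferon response whose gene overlaps Phrf1, was 3.19-fold lower [2.20 to 4.69] and 1.93-fold lower at matched depth. Because the rule removed cells with high Ifit1, Ifit3 and Ifit3b in both libraries, this list was described only among cells low in those genes. Ifi204, a PYHIN family DNA sensor, was at 5.64 and 2.09.

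MHC class I and innate sensing lists had medians below 0, with most members within 1.5-fold. Of 18 MHC class I genes 10 were measured and 8 were lower, 3 past 1.5-fold, beside 10.5% of all genes, with a median of -0.39 against -0.40 in gelatinase-rich cells. H2-K1, a class I heavy chain, was at 20.9 and 11.6, B2m, its light chain, at 38.4 and 24.9, and H2-D1 at 94.7 and 70.4. H2 genes are near-identical copies in part, and how the authors' counting shared reads between them is not given in the sources used here. Of 33 innate sensing receptors 18 were measured, 12 lower and 6 higher, with 5 lower and 1 higher past 1.5-fold and a median of -0.45. Over all genes measured, 10.5% were lower and 11.6% higher past 1.5-fold. Hcar2 and Clec4d, among the 5 lower receptors, are also markers in the sum that selected these cells. Tlr2, a receptor for bacterial lipoproteins, was at 2.30 and 0.9795 (2.35-fold lower [1.37 to 4.12]), and Clec7a, the beta-glucan receptor dectin-1, at 20.4 and 12.8 (1.60-fold lower [1.37 to 1.87]). In the IL-1 family, Il1rn, the receptor antagonist, was 3.06-fold lower [2.17 to 4.38], at 2.09 against 6.39, while Il1b did not differ beyond its interval. Nlrp3 was at 6.45 and 4.77. Nfkbiz, an NF-kB cofactor, was 2.01-fold lower [1.35 to 3.04]. Adam8, a gelatinase granule metalloprotease, was at 5.01 and 2.34.

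Higher in MCAO marker-high cells was Asprv1, an aspartic protease, at 5.53 in control and 14.6 in MCAO cells (2.64-fold [2.10 to 3.35]), close to its 2.56-fold in gelatinase-rich cells. Wfdc17 was at 10.4 and 20.95 (2.02-fold [1.70 to 2.41], and 3.01-fold [2.39 to 3.82] at matched depth). In gelatinase-rich cells of all depths it was 5.23-fold [4.39 to 6.26] higher, and at matched depth it stood there at 2.70 and 13.1. The difference between the folds of the 2 groups was not tested. Ifitm1, an interferon-inducible membrane protein, was at 13.1 and 25.2 (1.93-fold [1.65 to 2.25]), the opposite direction to the 10 interferon list genes that were lower past 1.5-fold. Tagln2, a transgelin, was at 1.73 and 5.37 (3.11-fold [2.07 to 4.79], and 4.73-fold [2.73 to 8.79] at matched depth) but 1.07-fold in gelatinase-rich cells. Klf2, a transcription factor, was at 4.90 and 9.50 and 1.03-fold in gelatinase-rich cells, and Pim1, a kinase induced through STAT signalling, at 8.18 and 15.7. Slk, a kinase, was at 0.634 and 2.60 (4.10-fold [2.14 to 8.64]) and Ldha, lactate dehydrogenase A, at 1.15 and 2.90 (2.51-fold [1.51 to 4.37], and 4.90-fold [2.20 to 12.9] at matched depth). The leading higher genes also included Rab31 at 0.634 and 2.43, Rflnb at 2.94 and 7.495, Nhsl2 at 0.864 and 2.30, Klra17 at 0.922 and 2.30, Chmp1b at 0.634 and 1.66, Dennd5a at 0.806 and 2.04, and Vamp3 at 0.691 and 1.70. Among the leading lower genes were Ifit1bl2 at 2.48 and 0.639, Sik1 at 1.96 and 0.681, Stk40 at 2.07 and 0.767, and Slc15a3 at 3.63 and 1.45. Thbs1, thrombospondin 1, was scarce, at 1.15 in control and 0.21 in MCAO marker-high cells (20 and 5 UMIs). Cd177 was at 4.32 and 5.71 (1.32-fold [0.989 to 1.78]), an interval that includes no difference, beside 1.35-fold [1.25 to 1.46] in gelatinase-rich cells.

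The ribosomal protein list had a median above 0. Of 88 genes 28 were measured, 23 of these were higher, and 12 passed 1.5-fold upward and 1 downward, beside the 11.6% and 10.5% of all genes, with a median of 0.37 against 0.24 in gelatinase-rich cells. Many ribosomal protein genes have near-identical pseudogene copies. Of 22 glycolysis and hypoxia genes 7 were measured and all 7 were higher, 1 of them (Ldha) past 1.5-fold, beside 11.6% of all genes, with a median of 0.23. The lists for chemokine receptors and egress and for colony-stimulating factor receptors both had medians of -0.06. Of 7 NADPH oxidase subunits measured, none passed 1.5-fold.

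A few cells bore some of these values. In a further comparison, the 5 control and 6 MCAO marker-high cells that passed a list of another cell type or stage were left out. Irf8, a transcription factor of monocytes and dendritic cells, then turned from 3.45-fold [1.66 to 8.06] higher to 0.568-fold [0.142 to 2.08]. Irf8 is itself on the monocyte list that removed some of these cells, so a fall was partly built in. Its remaining levels were low, at 0.423 in control and 0.241 in MCAO cells. The direction of the other 35 genes compared this way did not change. Hcar2 and Asprv1 were 0.233-fold and 2.83-fold, and Irf7 0.366-fold. At matched depth 7 of 31 genes left the interval of the value at all depths, and no value past 1.5-fold changed direction.

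**Figure D5:**
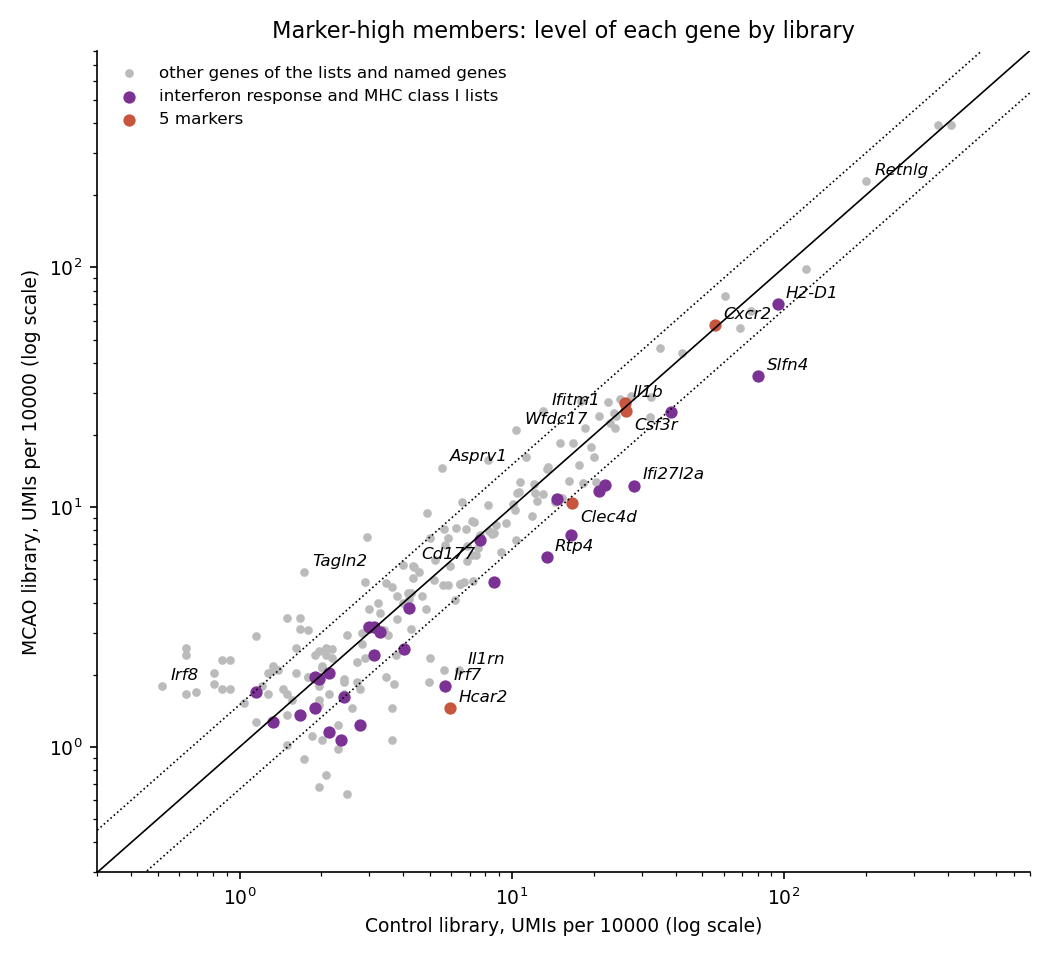
Level of each listed or named gene in marker-high cells, in UMIs per 10000 on log axes, with the control library on the horizontal and the MCAO library on the vertical axis. The solid line is equality and the dotted lines are 1.5-fold. Hcar2 (5.93 and 1.45) and Slfn4 (80.5 and 35.2) lie below the lines, Il1b, Csf3r and Cxcr2 near equality and Asprv1 (5.53 and 14.6) above.

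Over the whole set, 11.3% of 6136 genes were higher and 8.05% lower past 1.5-fold in the MCAO library, but here the makeup of the set moved with the condition. All 5 late markers were lower in the MCAO set, with Il1b at 7.88 and 4.25, Csf3r at 8.65 and 5.10, Cxcr2 at 17.5 and 10.4, Clec4d at 5.31 and 1.90 and Hcar2 at 1.81 and 0.237. Of these, Il1b, Csf3r and Cxcr2 did not differ beyond their intervals within marker-high cells of all depths. The floor on the marker sum partly builds in that likeness. Marker-low cells were 33.1% of the control set and 51.4% of the MCAO set. Because marker-low cells hold more UMIs each, they carried 446031 of 619650 UMIs in the control set and 1366137 of 1600949 in the MCAO set. A summed level of the set is therefore mostly that of its marker-low cells.

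Several leading genes of the whole set are on the monocyte, erythroid and dendritic lists. Fn1, fibronectin, was at 0.145 in the control and 1.45 in the MCAO set (9.98-fold [5.17 to 22.1]), F13a1, a coagulation factor subunit of monocytes, at 0.823 and 3.42, and Ccr2, the chemokine receptor of inflammatory monocytes, at 0.678 and 2.34. Vcan, versican, had 0 control and 63 MCAO UMIs. Slc4a1, the red cell anion exchanger, was at 0.290 and 1.18. In marker-low cells the haemoglobin genes reached 1000 in 5 MCAO cells and in none of the control cells. H2-Aa and H2-Eb1, MHC class II chains, went the other way, from 5.56 to 0.908 and from 3.25 to 0.381 in marker-low cells, and the dendritic list reached 60 in 5 control and 3 MCAO marker-low cells. The B-lineage list reached 60 in 4 control and 0 MCAO marker-low cells (at 3 cells of the total, up to 2.75%), with summed levels of 9.44 and 3.11. Other leading lower genes of the set were Hcar2, Ccl5 at 0.758 and 0.119, Acta2 at 0.613 and 0.0999, Ifit1bl2 at 0.807 and 0.156, Dusp5 at 0.516 and 0.112, Il1rn at 1.92 and 0.487, Basp1 at 0.775 and 0.194, Rtp4 at 4.95 and 1.37, and H2-Q6 at 1.31 and 0.356. Cells of other types therefore moved with these values, and the part of each in the result was not tested beyond the split given here.

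Within the marker-low cells the primary granule genes were level between the libraries, with Mpo, myeloperoxidase, at 45.9 and 42.7 and Elane 1.02-fold [0.977 to 1.06]. Of 24 interferon-response genes measured there, 15 were lower past 1.5-fold and none higher, with a median of -0.72, against 0.03 over all genes measured. The share of all genes past 1.5-fold was not computed for marker-low cells, so the count has none beside it. Slfn4 was at 8.23 in control and 3.40 in MCAO marker-low cells and H2-K1 at 13.2 and 7.52. A lower median of the interferon-response list and a lower level of H2-K1 in the MCAO library were thus measured in marker-high and in marker-low cells. Marker-low cells are a mixture whose makeup differed between the libraries. The monocyte list reached 60 in 13 of 49 control and 49 of 109 MCAO marker-low cells, and the dendritic list in 5 and 3. The part of this makeup in the marker-low values was not tested. Cd177 was at 6.57 and 9.52 in marker-low cells (1.45-fold [1.28 to 1.65]).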

How the data were processed

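Whole-transcriptome single-cell libraries were made on the BD Rhapsody microwell system, per the labels' protocols. Seurat 4.0.6, UMI-tools, STAR, fastp and build mm10 are named in the submitters' processing notes, while their settings and any filter on cells are not given in the sources used here. As natural log values, the authors deposited 1 table of 25943 genes, each value the log of 1 plus UMIs per 10000 of the cell. From the values, whole UMIs were recovered. Cells were assigned to libraries by the first word of their column names, translated from Mandarin; median depth was 3344 (control) and 4952 (MCAO) UMIs. No cell filter was added. Doublets were scored with Scrublet in scanpy 1.11.5 and kept.

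Levels are summed UMIs per 10000 with exact Poisson intervals, shares have exact Clopper-Pearson intervals, and folds have conditional binomial intervals (scipy 1.17.1). Only the folds and their intervals were tested on simulated data, which held counting error and no spread between cells. Log2 ratios used a pseudocount of 0.02. Genes were measured from 50 UMIs over both sides and 5% of cells of 1 side, at over 2 times the lowest level in lymphoid or erythroid cells for ranking. Genes leading a comparison are the 12 highest and 12 lowest, leaving out genes of the rule, globins and antigen receptor segments, with the 5 markers, Cd177 and Thbs1. Others named are the list members furthest from 0 or genes chosen after their values were seen. The members and lists were chosen with earlier results of these data known. No p-value was computed, since each condition had 1 library. The text names part of the genes this rule takes, and 1 of them is not reported here.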

Additional observations from a re-analysis of the deposited data

How the results depend on the processing

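The share of the set depended on its thresholds. In the MCAO library it was 9.84% with Mmp8 and Mmp9 under 40, 19.9% under 80, 12.7% in cells with at least 2000 UMIs, 7.29% with marker-high cells only and 12.99% after thinning. In the control it was 6.77%, 16.9%, 6.28% and 7.62% under the first 4 of these and 8.70% with the Ifit sum under 15. Genes higher past 1.5-fold in the MCAO set (691 as reported) numbered 1816 by the mean over cells, 289 with a pseudocount of 0.2, 1383 from 1 UMI, 114 in cells with 2000 to 4000 UMIs and 160 with marker-high cells only. Genes lower (494) numbered 291, 849, 85 and 144 under the last 4. Genes higher in the set than in gelatinase-rich cells (1419) numbered 690 by the mean over cells, 2350 from 1 UMI, 107 with marker-high members and 22 with marker-high cells on both sides. Genes lower (252) numbered 487 and 142 with the gelatinase sum under 40 and 80, 466 in cells with at least 2000 UMIs, 76 by the mean over cells, 161 with the pseudocount, 154 with marker-high members and 30 with both sides marker-high.

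Log2 ratios of MCAO over control in the whole set changed sign in cells with 2000 to 4000 UMIs for Ccl5 (3.50), Ccr2 (-0.63), Csf3r (0.43), Cxcr2 (0.12), Il1b (0.45), Rhag (-2.96), Slc4a1 (-0.94) and the median of the 5 markers (0.27). With marker-high cells only they changed sign for Ccl5 (0.27), Cxcr2 (0.038), H2-Aa (0.65), H2-Eb1 (0.25), Il1b (0.065) and Slc4a1 (-0.62). Fewer and other cells enter both settings. In marker-high cells Irf8, itself on the monocyte list, changed to -0.82 without cells past another list. Leaving out marked doublets changed no direction among the shares, counts, single genes and list medians of the whole set. The folds within marker-high cells were not computed without them. The alternatives of marker-high cells, matched depth and other lists were chosen after seeing the data. No paired analysis was possible because each condition had 1 library.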
